A study of Mus musculus with 52 samples.

Results

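Ribosome biogenesis factors are the proteins that make ribosomes without being part of the finished ribosome, and 48 of them were followed in mouse liver after partial hepatectomy, the surgical removal of liver lobes after which the remaining lobes grow back. For each gene the probe sets annotated to that gene alone were taken, and the one with the highest mean over all arrays stood for the gene. That gave 47 measured genes of the 18193 genes tested. Mrto4, a factor of the large ribosomal subunit, had no probe set of its own and was dropped. The 47 genes had 97 probe sets, and 33 genes had more than 1.

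The arrays measured total liver RNA of male C57Bl6/N mice aged 8 to 12 weeks at surgery, with 1 array per sample. After partial hepatectomy the 24-hour group held 11 arrays, the 1-hour and 3-month groups held 3 each, the 2-week group held 2, and the groups taken 6, 12 and 48 hours, 3 and 4 days, and 1 and 4 weeks after surgery held 4 each. The 5 controls had no operation, and no sham-operated group was used here. The labels do not say that each array came from a separate mouse, so the p-values measure the spread between these arrays, which may in part be technical. Values are log2 signals, so a difference of 1 is a 2-fold change, and levels are compared between groups for 1 gene at a time and not between genes.

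A ribosome is assembled in the nucleolus around ribosomal RNA that RNA polymerase I transcribes as a long precursor. Small nucleolar RNA-protein particles of the box C/D and box H/ACA classes guide the modification of that precursor, the small-subunit processome cuts and folds its small-subunit part, and further factors ripen and export the small and large subunits. Cells that prepare to grow need more ribosomes, and the transcription factor MYC is known to bind many genes of this kind through the E-box motif CACGTG.

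Of the 47 genes, 41 had a promoter window in the RefSeq table of the GRCm38.p6 assembly, which runs from 250 bases before to 50 bases after a transcription start. The E-box CACGTG, which reads the same on both strands, lay in a window of 9 of the 41 genes (21.95%), against 1473 of all 14368 measured genes with a window (10.25%). The 10 sites are shown because they are the members' sequences of that known growth-related motif, each in 30 bases on the gene's strand with the motif in capitals. The position of the motif's first base is given from the start, with negative values before it.

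Imp4, chr1:34439696-34439725, position -121: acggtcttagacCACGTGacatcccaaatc
Nop2, chr6:125131811-125131840, position -60: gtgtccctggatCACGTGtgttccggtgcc
Ltv1, chr10:13193092-13193121, minus strand, position 29: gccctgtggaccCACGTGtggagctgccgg
Pes1, chr11:3963965-3963994, position 3: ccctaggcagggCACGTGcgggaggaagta
Pno1, chr11:17211540-17211569, minus strand, position 38: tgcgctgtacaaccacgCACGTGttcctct
Tsr1, chr11:74898092-74898121, position 25: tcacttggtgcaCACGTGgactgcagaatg
Utp18, chr11:93885769-93885798, minus strand, position -20: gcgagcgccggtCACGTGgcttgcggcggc
Rrn3, chr16:13780472-13780501, position -215: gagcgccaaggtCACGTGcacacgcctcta
Rrn3, chr16:13780639-13780668, position -48: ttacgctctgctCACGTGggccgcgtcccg
Wdr43, chr17:71616220-71616249, position 18: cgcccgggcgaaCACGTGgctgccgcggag

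Of these 10 sites, 8 lay within 100 bases of the start. Rrn3, the initiation factor of RNA polymerase I, was the member with 2 sites, and the 250 bases before its start (GRCm38.p6, chr16:13780449-13780698, plus strand) are shown with both in capitals.

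Rrn3 upstream: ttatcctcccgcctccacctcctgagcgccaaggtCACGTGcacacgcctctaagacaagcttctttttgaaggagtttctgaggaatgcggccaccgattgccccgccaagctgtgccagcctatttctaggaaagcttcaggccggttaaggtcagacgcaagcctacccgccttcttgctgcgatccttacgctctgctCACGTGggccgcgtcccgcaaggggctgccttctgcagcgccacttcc

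The ETS-type motif CCGGAAG (both strands searched) lay in a window of 16 of the 41 genes (39.02%), against 15.03% of the measured genes. The GC box GGGCGG was in 73.17% against 57.46%, and the TATA-type motif TATAAA in 4.88% against 11.49%. The members' windows had a median GC content of 59.5%, against 52.67% over all windows of the table, and its part in these shares was not tested. These counts are matches of letters and do not show that a factor binds there.

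The tissue matched its label, since albumin (Alb) averaged between 13.91 and 14.12 in every group. Some arrays stood apart. All samples are labelled male, yet 3 arrays at 24 hours (replicates 9, 10 and 11) carried a signal for Xist, a transcript of female cells, of 9.12 to 9.49, against 2.51 to 3.81 on the other 49 arrays. The hybridization controls, RNAs added to every array, averaged 10.32 ± 0.16 at 12 hours (SD, n = 4) and 9.85 ± 0.15 at 1 week (SD, n = 4), against 10.85 ± 0.29 in the controls (SD, n = 5). The Gapdh 3' minus 5' difference, which rises when RNA degrades, was 1.61 ± 0.57 in the controls (SD, n = 5). Its arrays lay between 0.92 and 1.11 at 6 hours and 0.70 and 0.90 at 12 hours, against 1.12 to 2.56 in the controls. The hybridization controls lay between 10.20 and 10.26 and between 10.16 and 10.53 at these times, against 10.60 to 11.27. At 6 and 12 hours neither measure overlapped the controls. Controls and operated arrays therefore differed in technical measures as well as in treatment, and results are given below with the hybridization measure as a covariate where that changed them.

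Over the 47 genes together, the group mean was highest 12 hours after surgery. The mean log2 level per array lay between 7.50 and 7.67 at 12 hours, against 6.41 to 6.94 in the controls, so the arrays of these groups did not overlap. In time order the group mean was 6.73 in the controls and 6.86, 7.35 and 7.61 after 1, 6 and 12 hours. It was 7.33 and 7.37 after 24 and 48 hours, and 7.27 and 7.12 after 3 and 4 days. The 1-week, 2-week, 4-week and 3-month means were 7.40, 6.90, 7.10 and 7.18. Single arrays reached 7.59 at 24 hours, 7.56 at 48 hours, 8.00 at 1 week and 7.66 at 4 weeks, within or above the 12-hour range. By group mean, 24 of the 47 genes had their highest level at 12 hours, 8 at 48 hours and 6 at 1 week. The lowest mean was in the controls for 23 genes and at 1 hour for 12. In bulk RNA a change in the number of cells that express a gene and a change in RNA per cell cannot be told apart.

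**Figure D1:**
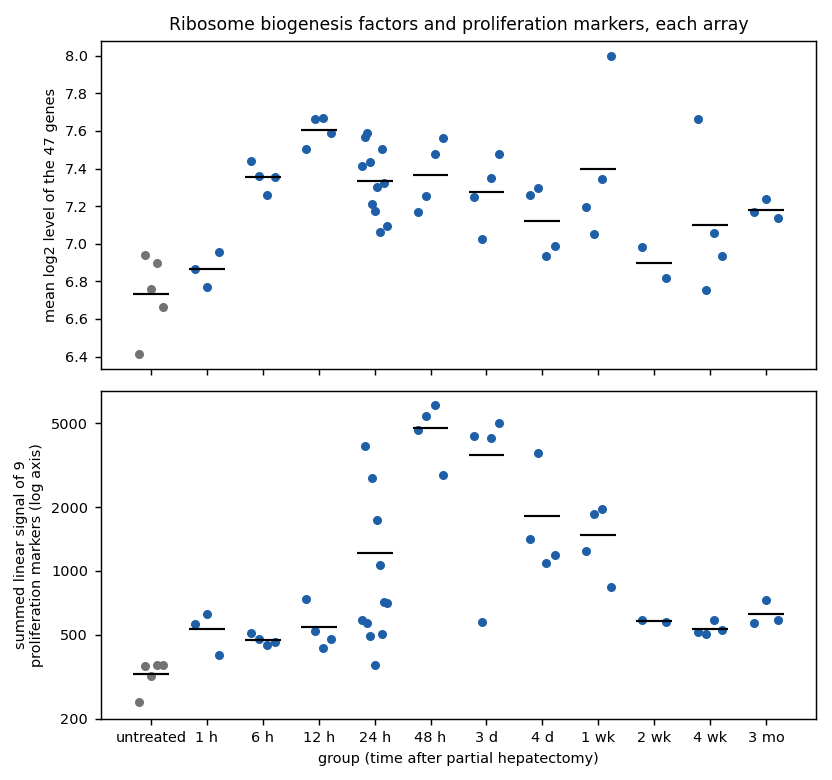
Mean log2 level of the 47 ribosome biogenesis factors (upper panel) and summed linear signal of 9 proliferation markers on a log axis (lower panel), with 1 point per array and a line at the group mean, for the controls (grey) and each time after hepatectomy (blue). The group mean of the factors was highest at 12 hours, with arrays between 7.50 and 7.67. The proliferation markers summed to between 433 and 734 at 12 hours and reached 2840 to 6077 at 48 hours.

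Proliferation markers, which are raised in dividing cells, were not among the genes higher at 12 hours. The 9 markers include Mki67, Top2a and Cdk1. Of them, 0 were higher at 12 hours and 4 at 24 hours (limma, adjusted p under 0.05), where 17.9% and 18.9% of all genes were. At 48 hours 9 were higher, where 17.4% of all genes were. At an unadjusted p under 0.05, 1 was higher and 0 lower at 12 hours, where 21.4% of all genes were higher and 18% lower. The summed linear signal of the 9 markers was 433 to 734 at 12 hours and 2840 to 6077 at 48 hours, against 240 to 359 in the controls. The sums at 12 hours thus lay above every control, although 0 of the markers passed. Mki67, a protein of dividing cells, averaged 3.19 at 12 hours and 9.17 at 48 hours, against 3.34 in the controls. Its means at 12 hours and in the controls lay below the median of all probe sets, which was 3.89 or more on every array.

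Counts of changed genes rose steeply between 1 and 12 hours. A gene was called when its limma p, adjusted by the Benjamini-Hochberg method over all 18193 genes, was under 0.05. At 1 hour 3 of the 47 genes were higher than in the controls, where 3.67% of all genes were, and 1 was lower (1.37% of all genes). At 6 hours 22 were higher and 1 lower, where 11.4% of all genes were higher and 10.5% lower. At 12 hours 37 were higher and 1 lower, where 17.9% of all genes were higher and 12.0% lower. The median log2 change of the 47 genes was 0.15 at 1 hour, 0.52 at 6 hours and 0.91 at 12 hours, while the median over all genes lay between -0.04 and 0.01 at these times. At 12 hours 17 genes were called higher by at least 2-fold, where 6.3% of all genes were. All 12-hour arrays lay above all controls for 37 genes, where 19.5% of all genes did so.

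**Figure D2:**
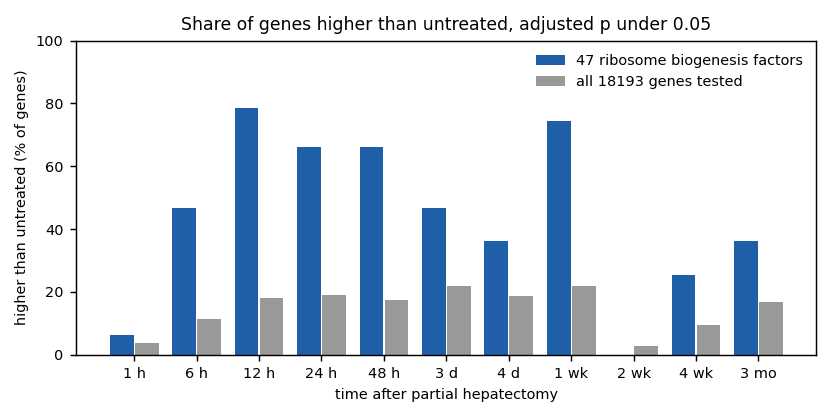
Percent of genes higher than in the controls at an adjusted p under 0.05 (vertical axis) at each time after hepatectomy, for the 47 ribosome biogenesis factors (blue) and all 18193 genes tested (grey). The factors' share reached 78.7% at 12 hours, where 17.9% of all genes were called, and was 0 at 2 weeks.

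Members were also higher than in the controls at the times from 24 hours to 1 week. At 24 hours 31 genes were higher and 0 lower, where 18.9% of all genes were higher and 12.8% lower. At 48 hours 31 were higher and 1 lower, where 17.4% were higher and 13.4% lower. At 3 days 22 were higher and 2 lower (21.7% and 17.7% of all genes), and at 4 days 17 were higher and 3 lower (18.8% and 14.1%). At 1 week 35 were higher and 0 lower, where 21.8% of all genes were higher and 14.9% lower. The median change was 0.53 and 0.58 at 24 and 48 hours, 0.43 and 0.42 at 3 and 4 days, and 0.63 after a week. At an unadjusted p under 0.05, 0 were lower at 24 hours, where 18.7% of all genes were, and 1 at 1 week, where 20% were. Without replicate 2 of the 4-day group 8 were higher and 2 lower at 4 days, and without replicate 1 of the controls 9 and 1. Without the 3 arrays with Xist, 35 genes were higher at 24 hours. Shares of all genes come from the reported fit, so counts under other fits, here and below, are not set against a background.

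Late counts were smaller and rested on few arrays. At 2 weeks, with 2 arrays, 0 genes passed the limma test, where 2.8% of all genes were higher and 0.605% lower. At an unadjusted p under 0.05, 8 of the 47 were higher and 3 lower at 2 weeks, where 10.5% of all genes were higher and 6.21% lower. With array weights 4 were higher and 1 lower at 2 weeks. At 4 weeks 12 were higher and 1 lower (9.33% and 5.38% of all genes), and without replicate 1 of that group 4 were higher and 0 lower, as were 5 and 0 without replicate 1 of the controls. At 3 months 17 were higher and 2 lower (16.7% and 13.4% of all genes), and without replicate 1 of that group 10 were higher and 2 lower, without replicate 2 of it 8 and 2, and without replicate 1 of the controls 9 and 2. After a further quantile normalization the split was 15 higher and 2 lower at 48 hours, 6 and 5 at 4 days, 17 and 2 at 1 week, 8 and 2 at 4 weeks, and 5 and 2 at 3 months. The median change was 0.18 at 2 weeks, 0.33 at 4 weeks and 0.48 at 3 months.

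Single arrays stood apart at late times. The mean level of the 47 genes was 8.00 on replicate 4 of the 1-week group, against 7.05 to 7.34 on the other arrays at 1 week. On it 43 of the 47 genes were above all of those arrays. The share of all genes that were so is not given here, so this count is not set against a background. Without replicate 4 of that group 24 genes were called at 1 week. Replicate 1 of the 4-week group had 7.66, within the 12-hour range, against 6.75 to 7.06 on the other arrays at 4 weeks. An earlier report on these data doubted 7 arrays, namely these, replicate 1 of the controls and replicates 1, 9, 10 and 11 at 24 hours. Without them 38 genes were called at 12 hours, 31 at 24 hours, 20 at 1 week and 3 at 4 weeks. When the hybridization controls entered as a covariate, 19 genes were called at 6 hours, 29 at 12 hours, 14 at 24 hours and 12 at 48 hours, and 0 at 1 hour and at each time from 3 days to 3 months. The shares of all genes called with this covariate are not given here. Whether the calls against the controls, early or late, come from the operation or from the technical difference cannot be told apart in this design.

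Markers of Kupffer cells, the resident macrophages of the liver, moved with the operation too. Of 10 markers, 3 were higher at 6 hours, 3 at 12 hours, 6 at 48 hours, and 9 at each of 24 hours, 3 days, 1 week and 3 months. Of all genes 11.4%, 17.9% and 17.4% were higher at 6, 12 and 48 hours. The shares of all genes at 24 hours, 3 days, 1 week and 3 months were 18.9%, 21.7%, 21.8% and 16.7%. The summed linear signal of the Kupffer markers was 704 to 1644 at 1 hour and 432 to 648 at 12 hours, against 205 to 421 in the controls. At 1 week it was 1134 to 3820. The 1-week array with the highest level of the 47 genes also had the highest Kupffer sum, 3820, whereas the 4-week array with the highest level had the lowest sum of its group, 401. Marker sums of other cell types also differed from the controls at some times. Of 8 neutrophil markers, 2 were higher and 0 lower at 6 and at 12 hours, and their sum was 250 to 438 at 6 hours and 237 to 465 at 12 hours, against 127 to 156 in the controls. Of 8 markers of endothelial cells, which line the vessels, 2 were higher and 0 lower at 6 and at 12 hours and 5 at 3 days, with sums of 1007 to 1275 at 6 hours and 742 to 1218 at 12 hours, against 432 to 860 in the controls. Of 8 markers of stellate cells, the collagen-making cells of the liver, 3 were higher and 0 lower at 3 days, with a sum of 2628 to 3185, against 1199 to 2203 in the controls. The sum of 8 lymphocyte markers went the other way, with 133 to 147 at 12 hours and 129 to 134 at 48 hours, against 149 to 182 in the controls. At 6 hours it was 156 to 176 and overlapped the controls. Of all genes 11.4% were higher and 10.5% lower at 6 hours, and 17.9% and 12.0% at 12 hours. At 3 days 21.7% of all genes were higher and 17.7% lower. Replicate 4 of the 1-week group also had the highest neutrophil, endothelial and stellate sums at 1 week (2340, 1316 and 5842). The part of these cells in the results was not tested.

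**Figure D3:**
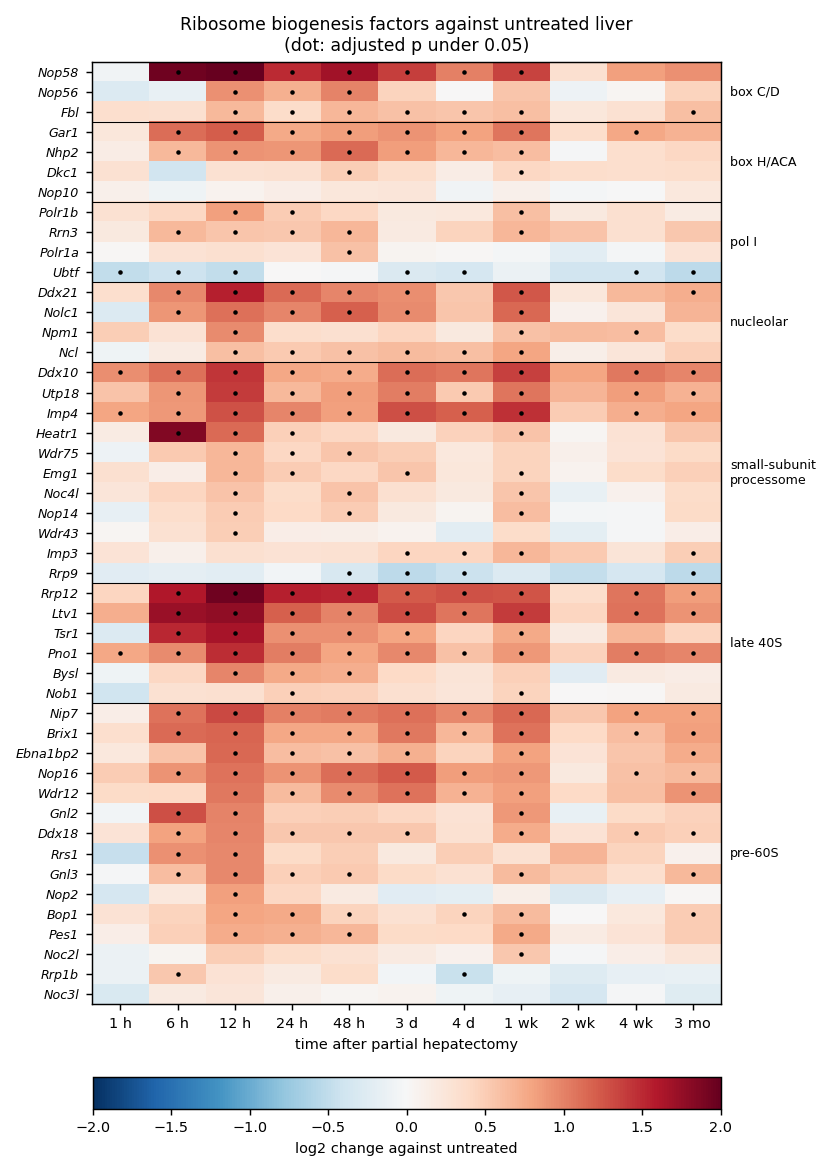
Log2 change against the controls (colour, from -2 to 2) of each of the 47 genes (rows, grouped by role) at the 11 times after hepatectomy (columns), with a dot where the adjusted p was under 0.05. Red at 12 hours covers most rows in every role group, with Nop58 (2.06) highest, while Ubtf and Rrp9 show blue.

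The box C/D particles carry the methylation of ribosomal RNA, with the methyltransferase fibrillarin (Fbl) and the core proteins Nop56 and Nop58. All 3 were higher at 12 hours, and 3 of 3 at 24 and 48 hours, where 17.9%, 18.9% and 17.4% of all genes were. Nop58 had 8.58, 8.79, 8.66 and 8.67 at 12 hours, against 6.28, 7.19, 6.66, 7.06 and 5.90 in the controls. It had 6.75, 6.36 and 6.54 at 1 hour, and 8.79, 8.62, 8.28 and 8.55 at 6 hours. The 6-hour and 12-hour arrays thus lay above every control, whereas those at 1 hour lay within the control range. The log2 change of Nop58 was 1.94 at 6 hours (adjusted p = 2.4e-05) and 2.06 ± 0.34 at 12 hours (SE, adjusted p = 7.7e-06), and between 6 hours and 1 hour it was 2.01 ± 0.39 (SE, adjusted p = 0.00023). Nop56 differed from the controls by -0.15 at 6 hours (adjusted p = 0.76) and rose by 0.91 at 12 hours (adjusted p = 0.0064). Its 12-hour mean was above its 6-hour mean by 1.06 ± 0.28 (SE, adjusted p = 0.0079). At 24 hours Nop58 ranged from 7.64 to 8.81 with a median of 8.13, and at 2 weeks it had 7.15 and 6.71.

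The box H/ACA particles turn uridine into pseudouridine through Dkc1, with Gar1, Nhp2 and Nop10 as partners. Of these, 2 of 4 were higher at 12 hours and 3 of 4 at 48 hours, where 17.9% and 17.4% of all genes were. Nhp2 had 8.96, 8.87, 9.26 and 8.90 at 48 hours and 8.76, 8.72, 8.79 and 8.78 at 12 hours, against 7.56, 8.03, 7.79, 8.05 and 7.89 in the controls. Arrays of both times lay above every control, and the log2 change was 1.13 at 48 hours (adjusted p = 3.6e-06) and 0.90 at 12 hours (adjusted p = 7.3e-05). At 2 weeks Nhp2 had 7.86 and 7.82, within the control range. Gar1 changed by 1.21 at 12 hours (adjusted p = 0.00052). Dkc1 had 6.90 ± 0.18 at 6 hours (SD, n = 4) against 7.59 ± 0.06 at 1 hour (SD, n = 3). The difference was -0.69 (adjusted p = 0.009), and its 12-hour mean was higher than its 6-hour mean by 0.69 (adjusted p = 0.0053). Against the controls Dkc1 differed by -0.38 at 6 hours and 0.31 at 12 hours (adjusted p = 0.094 and 0.15). Its second brightest probe set differed by -0.36 and 0.39 (adjusted p = 0.12 and 0.061 in a fit of every probe set). Its dimmest set, with a mean of 5.63 against 7.53, differed by 0.71 and 1.67 (adjusted p = 0.061 and 6.9e-06 in the same fit).

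By its brightest probe set, Nop10 was the gene with the smallest overall change (F test over all times, adjusted p = 0.46). It had 10.52, 10.60, 10.34 and 10.61 at 12 hours, against 10.33, 10.46, 10.55, 10.42 and 10.45 in the controls. These groups overlapped, and the difference was 0.08 (adjusted p = 0.74). Its dimmer probe set, with a mean of 8.99 over all arrays, differed by 0.70 at 12 hours (adjusted p = 6.3e-05 in a fit of every probe set). In that fit it was higher at each of the 11 times, by 0.40 at 4 days (adjusted p = 0.017) to 0.79 at 4 weeks (adjusted p = 6.4e-05). Whether Nop10 changed therefore depends on the probe set.

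**Figure D4:**
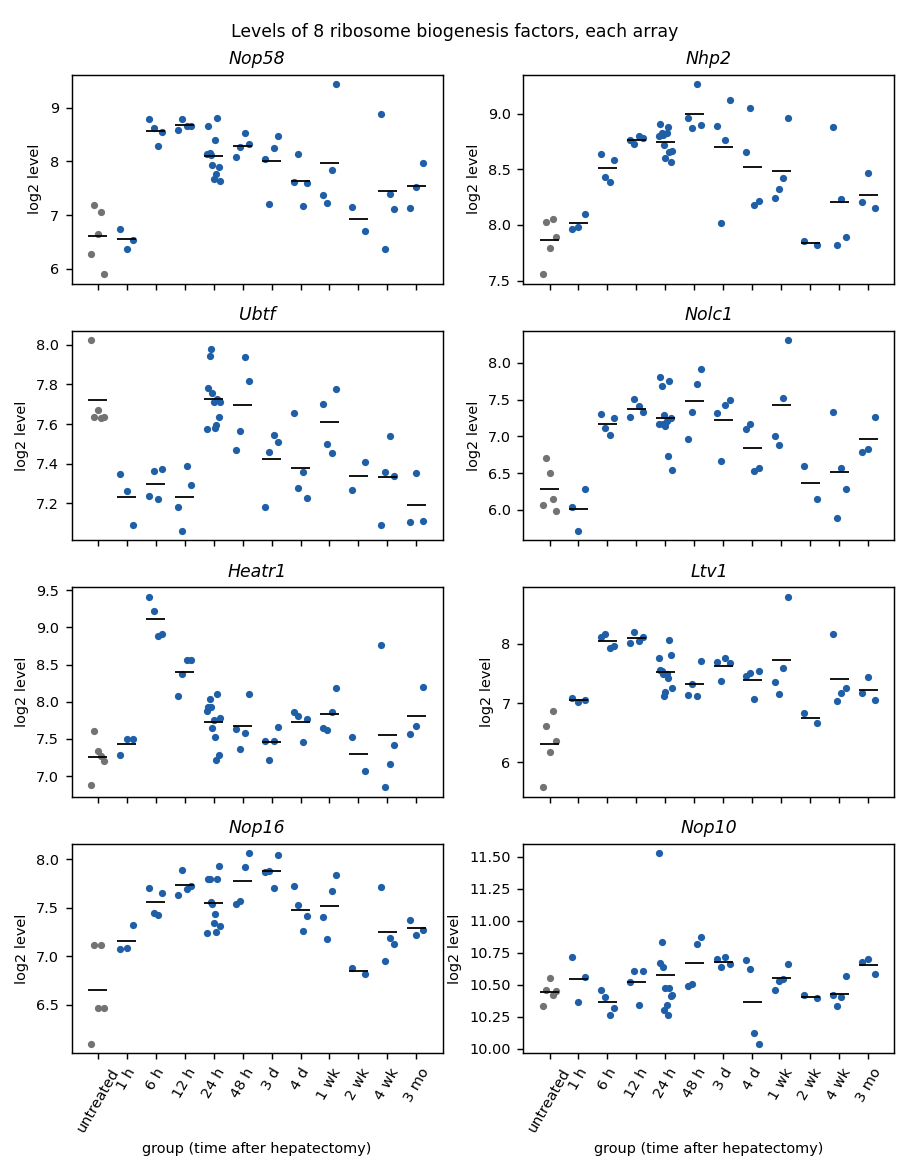
Log2 level (vertical axes, each with its own range) of 8 ribosome biogenesis factors on every array, with a line at the group mean, for the controls (grey) and each time after hepatectomy (blue). Nop58 and Ltv1 sit above all controls at 6 and 12 hours, Heatr1 is highest at 6 hours with 8.89 to 9.41, Ubtf is below all controls at 6 and 12 hours, and Nop10 overlaps the controls.

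The polymerase I group held the subunits Polr1a and Polr1b, the initiation factor Rrn3, and Ubtf, which binds the ribosomal RNA genes. At 12 hours Polr1b (0.83, adjusted p = 0.00021) and Rrn3 (0.55, adjusted p = 0.032) were higher. Ubtf was lower, with 7.18, 7.06, 7.39 and 7.29 at 12 hours, against 8.02, 7.64, 7.67, 7.63 and 7.63 in the controls. It had 7.35, 7.26 and 7.09 at 1 hour, also below every control, and the log2 change was -0.49 at both times (adjusted p = 0.012 at 1 hour and 0.00065 at 12 hours). At 24 hours Ubtf ranged from 7.57 to 7.98 with a median of 7.71, and its mean was above that at 12 hours by 0.49 ± 0.10 (SE, adjusted p = 0.00059). The other probe set of Ubtf, with a mean of 4.62 against 7.49 for the brighter, went the other way by 1.56 at 12 hours (adjusted p = 1e-04 in a fit of every probe set). The direction for Ubtf therefore depends on the probe set.

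All 4 general nucleolar proteins were higher at 12 hours, where 17.9% of all genes were. The RNA helicase Ddx21 changed by 1.56 (adjusted p = 9.3e-06), the small nucleolar particle chaperone Nolc1 by 1.10 (adjusted p = 0.00073), nucleophosmin (Npm1) by 0.94 (adjusted p = 0.00032) and nucleolin (Ncl) by 0.60 (adjusted p = 0.035). Nolc1 had 7.26, 7.50, 7.41 and 7.33 at 12 hours and 7.30, 7.11, 7.02 and 7.25 at 6 hours, against 6.06, 6.70, 6.50, 6.15 and 5.99 in the controls. Arrays of both times lay above every control. At 1 hour Nolc1 had 6.04, 5.72 and 6.28, and its 6-hour mean was above its 1-hour mean by 1.16 ± 0.29 (SE, adjusted p = 0.0044). Npm1 was higher at 12 than at 6 hours by 0.66 (adjusted p = 0.041), and lower at 24 than at 12 hours (log2 change -0.59, adjusted p = 0.024).

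Of 11 measured small-subunit processome factors, 9 were higher at 12 hours, where 17.9% of all genes were. They were led by the helicase Ddx10 (1.43, adjusted p = 1.7e-06), Utp18 (1.39, adjusted p = 3.4e-07) and Imp4 of the U3 particle (1.27, adjusted p = 2e-06). The second brightest probe set of Utp18, with a mean of 1.86 against 7.03, differed by -0.014 at 12 hours. Ddx10 and Imp4, together with Pno1 of the late small-subunit group, were also the genes higher at 1 hour, by 0.93, 0.79 and 0.77, and the genes called higher at 10 of the 11 times. The second brightest probe sets of Ddx10 and Imp4 differed by 0.55 and 0.13 at 1 hour (adjusted p = 0.057 and 0.79 in a fit of every probe set). At 4 days they differed by 0.028 and 0.11 (adjusted p = 0.92 and 0.65 in the same fit). For Ddx10 and Imp4 the calls at 1 hour and at later times therefore depend on the probe set. Without replicate 3 of the 1-hour group, 0 of the 47 genes were called at 1 hour, and likewise without replicate 1 of the controls.

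Heatr1, the mouse counterpart of yeast Utp10, had the largest F statistic of the 47 genes and peaked at 6 hours. It had 9.41, 9.22, 8.89 and 8.91 at 6 hours, against 6.88, 7.61, 7.33, 7.26 and 7.20 in the controls. At 12 hours it had 8.08, 8.38, 8.56 and 8.56, and at 48 hours 7.63, 7.36, 7.58 and 8.10. The arrays at 6 and 12 hours lay above every control, and those at 48 hours overlapped the controls. The log2 change was 1.85 ± 0.22 at 6 hours (SE, adjusted p = 2.2e-08), and Heatr1 was lower at 12 than at 6 hours (-0.71, adjusted p = 0.045) and at 24 than at 12 hours (-0.66, adjusted p = 0.021). Its other probe sets were dim, with means of 3.94 and 3.28 against 7.78, and the brighter of them differed by -0.54 at 12 hours (adjusted p = 0.019 in a fit of every probe set).

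Rrp9, a protein of the U3 particle, was the member with its highest group mean in the controls. It was lower at 48 hours (-0.32, adjusted p = 0.041), 3 days, 4 days and 3 months (-0.53, adjusted p = 0.0026).

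The late small-subunit factors, which ripen and export the small subunit, had the highest median change of the role groups at 12 hours, 1.56. Of these 6 factors 5 were higher, where 17.9% of all genes were. Ltv1 changed by 1.77 (adjusted p = 8.3e-08), the GTPase-like Tsr1 by 1.65 (adjusted p = 7.9e-06), and Pno1, the partner of the nuclease Nob1, by 1.48 (adjusted p = 1.4e-07). The export factor Rrp12 averaged 5.73 at 12 hours, against 3.79 in the controls, where it lay below the median of all their probe sets, 4.04. Set against that median it was at least 3.22-fold higher at 12 hours (adjusted p = 2.4e-06 in the fit of the measured values). Ltv1 had 8.01, 8.20, 8.04 and 8.12 at 12 hours, against 5.58, 6.62, 6.18, 6.86 and 6.35 in the controls. It had 7.08, 7.02 and 7.06 at 1 hour and 8.11, 8.16, 7.93 and 7.96 at 6 hours. All arrays of these 3 times lay above every control, although the 1-hour change of 0.73 missed the threshold (adjusted p = 0.071). At 48 hours Ltv1 was lower than at 12 hours (log2 change -0.78, adjusted p = 0.024), and still higher than the controls by 1.00 (adjusted p = 0.00077). Nob1, which makes the final cut of the small-subunit RNA, differed by 0.33 at 12 hours (adjusted p = 0.18) and was higher at 24 hours (0.48, adjusted p = 0.0095).

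Of the 15 measured factors of the large subunit, 12 were higher at 12 hours, where 17.9% of all genes were. Pes1, Bop1 and Wdr12, which form 1 complex, changed by 0.74, 0.79 and 1.06 (adjusted p = 0.0029, 0.00042 and 0.00021). Nip7 changed by 1.33, Brix1 by 1.16 and Ebna1bp2 by 1.14 (adjusted p = 4.5e-06, 2.4e-05 and 6.9e-05). For Bop1 the dimmer probe set, with a mean of 2.40 against 6.33, went the other way, by -0.15 at 12 hours (adjusted p = 0.34), and was lower at 24 hours (-0.26, adjusted p = 0.023) and 48 hours (-0.35, adjusted p = 0.014 in a fit of every probe set). For Ebna1bp2 the second brightest of 3 sets, with a mean of 4.83 against 7.19, differed by -0.069 at 12 hours (adjusted p = 0.72) and was lower at 3 and 4 days (-0.36 and -0.44, adjusted p = 0.016 and 0.005 in the same fit). At 12 hours neither of these dimmer sets passed, and at the later times named the direction depended on the probe set. The mean of the dimmer Bop1 set lay below the median of all probe sets, which was 3.89 or more on every array. The putative GTPase Gnl2 was highest at 6 hours, with a change of 1.29 (adjusted p = 7.3e-05). Noc2l, Noc3l and Rrp1b were the 3 members that did not pass at 12 hours, with changes of 0.48, 0.25 and 0.29 (adjusted p = 0.07, 0.13 and 0.14). The other probe sets of Rrp1b had means of 5.60 and 5.44, against 5.63. They were higher at 12 hours by 0.92 and 0.59 (adjusted p = 0.0015 and 0.00036 in a fit of every probe set). The dimmer sets of Noc3l and Noc2l differed by 0.83 and -0.11 (adjusted p = 0.0037 and 0.67 in the same fit). Whether Rrp1b and Noc3l passed at 12 hours therefore depends on the probe set.

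Nop16, the large-subunit factor with the largest F statistic, was highest at 3 days. It had 7.87, 7.88, 7.71 and 8.04 at 3 days and 7.63, 7.89, 7.69 and 7.72 at 12 hours, against 6.10, 7.12, 6.46, 7.11 and 6.47 in the controls. Arrays of both times lay above every control, and the change was 1.22 at 3 days and 1.08 at 12 hours (adjusted p = 3.3e-07 and 2.6e-06). At 2 weeks Nop16 had 6.88 and 6.82, within the control range.

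Between successive times, 14 genes were higher and 1 lower at 6 hours than at 1 hour, where 4.45% of all genes were higher and 6.44% lower. Array weights called 24 higher and 1 lower at 6 hours against 1 hour, and a fit of only these groups 25 and 1. The largest differences were those of Nop58, Tsr1 (1.79, adjusted p = 5.7e-05), Heatr1 (1.68, adjusted p = 5.3e-06) and Rrs1 (1.38, adjusted p = 0.0014). At 12 hours 3 genes were higher and 1 lower than at 6 hours, where 7.39% of all genes were higher and 1.98% lower. This count depended on the fit: it was 2 higher and 0 lower without any single array of these groups, 6 and 1 with the hybridization covariate, 11 and 1 without the 7 doubted arrays, 18 and 1 with array weights, and 21 and 2 in a fit of only the groups compared. At 24 hours 1 gene was higher and 6 lower than at 12 hours (5.13% and 4.58% of all genes), and at 48 hours 1 was higher and 6 lower than at 12 hours (7.16% and 4.62%). The single higher gene was Ubtf in both comparisons. The 6 lower at 24 hours were Utp18, Tsr1, Heatr1, Ddx10, Npm1 and Ddx18, and the 6 lower at 48 hours were Ltv1, Heatr1, Ddx10, Pno1, Nop2 and Npm1. These counts rested on single arrays. At 24 against 12 hours 1 gene was lower without any 1 of replicates 2, 3 and 4 of the 12-hour group. At 48 against 12 hours 3, 0, 2 and 1 genes were lower without replicates 1, 2, 3 and 4 of the 12-hour group, and 2, 2 and 0 without replicates 1, 2 and 3 of the 48-hour group. Without replicate 4 of the 1-week group, which enters the shared estimate of spread, 10 were lower in each comparison. Array weights called 21 lower at 24 hours and 17 at 48 hours against 12 hours, and without the 7 doubted arrays 18 and 13 were lower.

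Later intervals gave 0 called genes. At 1 week against 48 hours 0 passed, where 1.41% of all genes were higher and 1.66% lower, and array weights called 2 higher and 3 lower. At an unadjusted p under 0.05, 3 were higher and 3 lower in this contrast, where 10.2% of all genes were higher and 6.1% lower. At 3 months against 1 week 0 passed, where 0.302% of all genes were higher and 0.506% lower, with a median change of -0.23. At an unadjusted p under 0.05, 0 were higher and 3 lower in that contrast, where 5.58% of all genes were higher and 8.17% lower. Over all times, 44 of the 47 genes passed the F test against the controls, as did 64.6% of all genes. The others were Nop10, Noc4l and Noc2l, each by its brightest probe set.

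All 9 genes with an E-box in a promoter window were higher at 12 hours, with log2 changes from 0.49 to 1.77 and a median of 1.27. Of the 32 genes with a window and no such motif, 22 were higher, with changes from -0.49 to 2.06 and a median of 0.86. Nop58, the gene with the largest change at 12 hours, was among those without one. Of all genes 17.9% were higher at 12 hours. The difference between the sets with and without the motif was not tested.

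Other genes of the same pathway also changed. Of 108 measured, 60 were higher and 2 lower at 12 hours, with a median change of 0.54. They were 40 small-subunit factors with 24 higher, 40 large-subunit factors with 19 higher, 16 polymerase I genes with 9 higher and 12 exosome genes with 8 higher. As shares of the 108, 55.6% were higher at 12 hours, where 17.9% of all genes were, and 29.6% at 6 hours, where 11.4% were. At 48 hours 42.6% were higher and at 1 week 55.6%, where 17.4% and 21.8% of all genes were. At 4 days 20.4% were higher and at 2 weeks 2.78%, close to the 18.8% and 2.8% of all genes. Of those with the largest F in their list, Eif6, which keeps the large subunit from joining too early, changed by 2.62 at 12 hours (adjusted p = 2.1e-09). Znrd1, a subunit of RNA polymerase I, changed by 1.30 (adjusted p = 3.2e-07), Dcaf13, a small-subunit factor, by 1.19 (adjusted p = 8.8e-07) and Exosc9, of the exosome that trims ribosomal RNA, by 0.84 (adjusted p = 2.9e-05).

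For 33 genes the other probe sets could be read beside the brightest. Of the 97 probe sets, 65 were higher and 3 lower at 12 hours, 43 and 2 at 6 hours, 52 and 3 at 48 hours, and 52 and 4 at 1 week. The shares over all probe sets are not given here, so these counts are not set against a background. The 97 sets include dim ones, such as a set of Polr1a with a mean of 1.83 over all arrays. At 12 hours every probe set was higher for 14 genes, and Heatr1, Ubtf and Wdr75 had sets called in both directions. For Wdr75 the brighter set, with a mean of 6.51, changed by 0.66 and the dimmer, with a mean of 3.06, by -0.48.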

How the data were processed

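Each of 52 liver RNA samples was measured on 1 Affymetrix Mouse Genome 430 2.0 array, according to the labels' protocols. The authors deposited log2 probe set values and, per the submitters' processing notes, used the RMA method of oligo 1.52.0. This method corrects background, gives arrays a common distribution and summarises the probes of a set, so a shift shared by most genes is hidden. The number of arrays limits the precision. The sources used here do not say which arrays entered 1 normalization.

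Of the 45101 probe sets, 34945 were annotated to 1 gene, 932 to several, and 9211 were not listed; 64 were control sets. Groups came from the labels. In R 4.3.3, limma 3.58.1 (lmFit, eBayes) fitted the 12 group means over all 52 arrays, so groups share an estimate of spread. Tests were two-sided, adjusted by the Benjamini-Hochberg method over 18193 genes. Each of the 11 times was compared with the same 5 controls, and 6 contrasts compared times. Calls of 1 gene at several times therefore share those controls and are not independent, and overlaps between comparisons were not tested. The script was checked on simulated data.

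The genes given array by array have the largest F of their role group, plus the smallest F of all. Those named from other lists have the largest F of their list. The members and lists were chosen with earlier results of these data known. The 13 alternatives changed the probe set, samples, scaling, filter, prior, weights, replicate block or a technical covariate, and each array was left out in turn. Same-numbered samples did not deviate together in the median over all groups, and samples were not treated as paired. A median over all groups cannot exclude pairing within some of them.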

Additional observations from a re-analysis of the deposited data

Results flagged for a closer look

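One array lay far from its group. Ubtf, the factor that binds ribosomal RNA genes, had 8.02 on control replicate 1, where the nearest control had 7.67. It was the 1 such array among 72 sets of values examined (the 8 genes given array by array and the mean of the 47, in each group of 4 or 5 arrays), and chance alone would mark about 1 in 20. Each 12-hour array of Ubtf lay below all 5 controls, so the groups did not overlap without this array either.

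Differences between 2 times after surgery passed the limma test (adjusted p under 0.05) for Nop58, Nolc1, Heatr1, Ltv1 and Ubtf. At 6 hours against 1 hour the log2 difference was 2.01 for Nop58, 1.68 for Heatr1, 1.16 for Nolc1 and 0.99 for Ltv1. Heatr1 then differed by -0.71 at 12 hours against 6 hours, by -0.66 at 24 against 12 hours and by -0.73 at 48 against 12 hours. Ltv1 differed by -0.78 at 48 hours against 12 hours. Ubtf differed by 0.49 at 24 hours and by 0.47 at 48 hours, each against 12 hours. No explanation was tested for these differences.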

How the results depend on the processing

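The counts at 6 and 12 hours against the controls stayed within 1.5 times of the value reported under all 13 alternatives and without any single array. Of 233 counts under an alternative, 183 stayed within 1.5 times of the value reported and 50 did not. The shares of all genes under the alternatives are not given here, so changes in these counts are not set against a background. The labels share replicate numbers, but same-numbered arrays did not deviate together in the median (correlation -0.003 over 224 pairs, 48 of them above 0.1). Single pairs ranged from -0.55 to 0.56, so pairing within some groups is not excluded. With the replicate block 3 genes were called at 24 against 12 hours and 2 at 1 week against 48 hours, and the other counts stayed within 1.5 times. For the moved counts the cause was not tested, except that fits of fewer arrays have fewer arrays by construction.

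Against the controls, the hybridization covariate gave 0 called genes at 1 hour, 14 and 12 at 24 and 48 hours, and 0 in the 3-day, 4-day, 1-week, 4-week and 3-month groups. Of contrasts between times it gave 7 at 12 against 6 hours and 1 at 1 week against 48 hours. The Gapdh covariate gave 0 at 1 hour, 11 at 4 days, 3 at 4 weeks and 4 at 48 against 12 hours. A further quantile normalization gave 17 at 48 hours (15 higher and 2 lower, against 31 and 1 as reported), 11 at 4 days (6 higher and 5 lower, against 17 and 3 as reported), 19 at 1 week (17 and 2, against 35 and 0), 1 at 2 weeks, 10 at 4 weeks (8 and 2, against 12 and 1), 7 at 3 months (5 and 2, against 17 and 2), 11 at 24 against 12 hours, 13 at 48 against 12 hours and 2 at 1 week against 48 hours. Averaging all probe sets of a gene gave 1 at 2 weeks, 20 at 4 weeks and 11 at 48 against 12 hours. The second brightest probe set gave 8 at 1 hour and 3 at 2 weeks. A fit of only the groups compared gave 1 at 1 hour, 4 at 4 weeks, 26 at 6 against 1 hour, 23 at 12 against 6 hours and 15 at 48 against 12 hours. Array weights gave 9 at 1 hour, 5 at 2 weeks, 25 at 6 against 1 hour, 19 at 12 against 6 hours, 23 at 24 against 12 hours, 18 at 48 against 12 hours and 5 at 1 week against 48 hours. At 1 week against 48 hours the filter on dim genes gave 1, and leaving out the 3 arrays with Xist gave 2. Without the 7 doubted arrays there were 20 at 1 week, 1 at 2 weeks, 3 at 4 weeks, 12 at 12 against 6 hours, 19 at 24 against 12 hours, 14 at 48 against 12 hours and 3 at 1 week against 48 hours.

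With each of the 52 arrays left out in turn, the count against the controls ranged from 0 to 6, 22 to 26 and 33 to 39 at 1, 6 and 12 hours. It ranged from 25 to 35 and 22 to 35 at 24 and 48 hours, and 20 to 28 and 10 to 21 at 3 and 4 days. For the 1-week, 2-week and 4-week groups it was 24 to 36, 0 to 1 and 4 to 19, and for the 3-month group 10 to 24. Between times it ranged from 10 to 18 at 6 against 1 hour, 2 to 6 at 12 against 6 hours, 2 to 11 at 24 against 12 hours, 1 to 11 at 48 against 12 hours and 0 to 1 at 1 week against 48 hours, was 0 at 3 months against 1 week, and was 40 to 46 for the F test. Control replicate 1 moved 4 counts: without it there were 0 at 1 hour, 10 at 4 days, 5 at 4 weeks and 11 at 3 months. Without replicate 1 or 2 of the 3-month group there were 12 or 10 at 3 months, and without replicate 2 of the 4-day group 10 at 4 days. Without replicate 1, 2 or 3 of the 1-hour group there were 1, 2 or 0 at 1 hour. At 2 weeks 1 gene was called without 24-hour replicate 1, 1-week replicate 4 or control replicate 2. At 1 week against 48 hours 1 was called without replicate 1, 3 or 4 of the 1-week group, 3-day replicate 2, or 24-hour replicate 3 or 9. The arrays that moved the earlier contrasts between times are named with those results.

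Changes of sign are listed only where the reported fit or the alternative called the gene; differences called in neither also changed sign and are not listed. With the second brightest probe set, the log2 change against the controls had the other sign for Bop1 (-0.15 at 12, -0.26 at 24 and -0.35 at 48 hours, -0.15 at 4 days, -0.23 at 1 week, -0.035 at 3 months), Ebna1bp2 (-0.069 at 12, -0.22 at 24 and -0.19 at 48 hours, -0.36 at 3 and -0.44 at 4 days, -0.34 at 1 week, -0.39 at 3 months), Heatr1 (-0.32 at 6, -0.54 at 12 and -0.37 at 24 hours, -0.52 at 3 and -0.65 at 4 days, -0.71 at 1 and -0.52 at 4 weeks), Imp4 (-0.16 at 3 months), Ncl (1.22 at 1 hour), Nip7 (-0.049 at 4 weeks), Noc2l (-0.12 at 1 week), Nop10 (0.67 at 6 hours, 0.40 at 4 days, 0.69 at 2 and 0.79 at 4 weeks), Nop16 (-0.19 at 1 and -0.033 at 4 weeks), Polr1a (0.49 at 1 week), Rrp1b (0.65 at 3 and 0.47 at 4 days, 0.78 at 1 week), Ubtf (1.53 at 1, 1.33 at 6, 1.56 at 12 and 1.23 at 48 hours, 1.30 at 3 and 0.59 at 4 days, 1.53 at 4 weeks, 1.02 at 3 months), Utp18 (-0.056 at 6 and -0.014 at 12 hours, -0.014 at 1 week) and Wdr75 (-0.48 at 12, -0.31 at 24 and -0.19 at 48 hours, -0.45 at 1 week). Between times it had the other sign for Heatr1 (0.18 at 24 and 0.23 at 48 against 12 hours), Nip7 (-0.64 at 12 against 6 hours), Ubtf (-1.13 at 24 and -0.33 at 48 against 12 hours) and Utp18 (0.028 at 24 against 12 hours). With the mean of the probe sets it had the other sign for Ebna1bp2 (-0.033 at 3 months), Heatr1 (-0.021 at 24 hours, -0.15 at 1 week), Nop10 (0.39 at 4 weeks) and Ubtf (0.52 at 1, 0.45 at 6, 0.53 at 12 and 0.60 at 48 hours, 0.50 at 3 and 0.12 at 4 days, 0.57 at 4 weeks, 0.25 at 3 months). Between times this held for Ubtf (-0.32 at 24 against 12 hours). With the hybridization covariate it had the other sign for Dkc1 (-0.28 at 1 week) and Fbl (-0.025 at 3 days).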
